A study of Homo sapiens with 24 samples.

Results

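The BMP and TGF-beta ligand genes BMP2, BMP4, BMP5, BMP7 and TGFB2 were followed by their chromatin in ventricular-like cardiomyocytes. Every region that overlapped one of 5 windows of the hg19 genome build was taken, which gave 59 of the 153244 regions counted in all libraries. The windows held 3 regions at BMP2 (chr20:6735000-6775000), 5 at BMP4 (chr14:54405000-54435000), 12 at BMP5 (chr6:55608000-55751000), 20 at BMP7 (chr20:55733000-55852000) and 19 at TGFB2 (chr1:218509000-218628000). All but 1 lay wholly inside its window, and region 1 of BMP7 straddled the edge. Regions are numbered within each window from the lowest coordinate. RefSeq (GRCh38.p14) also lists the antisense and overlapping genes TGFB2-AS1, TGFB2-OT1 and BMP7-AS1 at these genes, so a region belongs to a window and not with certainty to 1 gene.

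The cells were derived from H9, a human embryonic stem cell line, and were taken at day 15 of differentiation, from cells with ZNF436 knocked down (ZNF436kd, "knockdown" here) and from control cells (ctrl), both of the same H9 background and the same differentiation. ZNF436 encodes a zinc finger protein, and the method of its knockdown is not stated in the labels. Each group had 3 libraries for each of 4 histone marks, 24 in all, made by CUT&Tag, a method that brings a transposase to antibody-bound nucleosomes, where it inserts sequencing adapters. Whether the replicates are separate cultures is not stated in the labels, and the spread behind each p-value may therefore be technical. Everything comes from 1 cell line, and the ventricular-like label and the level of ZNF436 were not checked against marker genes, because no hg19 gene annotation was used here.

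The ligands of this family are secreted dimers that bind paired serine/threonine kinase receptors, which then phosphorylate SMAD proteins that enter the nucleus with SMAD4. BMP2 and BMP4 form one closely related branch and BMP5 and BMP7 another, and both branches signal through SMAD1, SMAD5 and SMAD9, whereas TGFB2 signals through SMAD2 and SMAD3. BMP signals help to set up heart muscle from mesoderm, and TGFB2 takes part in the formation of the valve cushions, as known mainly from mouse and chick. Among the marks, H3K4me3 sits at active promoters, H3K4me1 at enhancers, H3K27ac at active promoters and enhancers, and H3K9me3 in silenced heterochromatin.

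RefSeq promoters (GRCh38.p14, 250 bases before the annotated start) were matched for BMP4, BMP5 and TGFB2, and 1 of each is shown. The H3K4me3 results below set TGFB2, which was called, against BMP4 and BMP5, which were not. The log2 fold changes of BMP5 and TGFB2 were alike there (0.45 and 0.43), and a link between sequence and mark was not tested. They are given 5′ to 3′ on the gene's strand, with the letters of any searched motif in capitals. The BMP4 entry is the first of 3 and lies at chr14:53955051-53955300 (minus strand), the BMP5 entry at chr6:55875591-55875840 (minus strand) and the TGFB2 entry at chr1:218345086-218345335 (plus strand).
BMP4: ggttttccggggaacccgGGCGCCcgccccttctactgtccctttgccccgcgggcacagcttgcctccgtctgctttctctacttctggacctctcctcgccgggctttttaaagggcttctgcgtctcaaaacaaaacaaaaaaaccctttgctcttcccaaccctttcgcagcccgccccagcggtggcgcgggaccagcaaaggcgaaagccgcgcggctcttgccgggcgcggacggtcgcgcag
BMP5: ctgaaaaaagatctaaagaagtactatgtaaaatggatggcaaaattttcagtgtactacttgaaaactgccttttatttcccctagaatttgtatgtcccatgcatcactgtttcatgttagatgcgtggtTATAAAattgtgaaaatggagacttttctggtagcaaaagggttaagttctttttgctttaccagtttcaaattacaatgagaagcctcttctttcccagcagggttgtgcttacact
TGFB2: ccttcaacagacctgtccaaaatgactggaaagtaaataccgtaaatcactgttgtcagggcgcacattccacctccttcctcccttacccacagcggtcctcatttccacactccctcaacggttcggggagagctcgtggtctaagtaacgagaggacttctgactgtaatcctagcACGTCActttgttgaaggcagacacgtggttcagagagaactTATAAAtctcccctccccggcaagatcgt
All motifs were searched on both strands. The core of a TATA box was spelled TATAAA. A piece of the cyclic AMP response element was spelled TGACGT. The motif bound by GATA factors was spelled AGATAA. A GC-rich palindrome was spelled GGCGCC. None of the matches overlapped another. TGFB2 held TATAAA at -29 and TGACGT at -71 from the start, read there on the opposite strand, BMP5 held TATAAA at -118, and the BMP4 entry held GGCGCC at -232. Of all 35116 RefSeq promoters of this length, 10.7% held TATAAA, 7.1% TGACGT, 9.17% AGATAA and 16.4% GGCGCC. The 3 promoters also differed in base composition. The BMP4 entry had 25 CpG pairs and 63.6% G+C, the TGFB2 entry 11 CpG pairs and 50.4%, and the BMP5 entry 1 CpG pair and 35.6%, against medians of 11 and 58% over all promoters. Entries 2 and 3 of BMP4 held none of the searched motifs and had 17 and 27 CpG pairs, with 56% and 70.4% G+C. These promoters belong to another build and were not placed within the hg19 regions.

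Libraries of H3K4me3 totalled 11023905 to 13933927 counts, those of H3K27ac 2955710 to 3681687, those of H3K4me1 3920283 to 4936265 and those of H3K9me3 2103185 to 2880412. The control libraries lay far apart. On the first principal component of H3K27ac, the knockdown libraries lay at 30.2, 16.6 and 28.2 and the control libraries at -27.9, -59.3 and 12.2, so that control replicate 3 lay on the knockdown side. The same library number lay on that side in H3K4me3 and H3K4me1, and results that rest on it are given with and without it. Control replicate 2 lay furthest the other way in all of these marks, at -59.3 in H3K27ac, -10.3 in H3K4me3 and -54.4 in H3K4me1. Leaving out control replicate 2 narrowed several of the differences below. Because control replicate 3 was singled out from these same data, leaving it out widens the difference between groups by choice. Results without it are therefore no separate support. Values below are normalised CPM, read counts divided by library sizes scaled with the trimmed mean of M values (TMM). Tests are edgeR's quasi-likelihood tests with Benjamini-Hochberg adjustment over all tested regions of a mark, called at an adjusted p under 0.05, and fold changes are knockdown over control.

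Each ligand gene had 1 leading region that carried nearly all of its H3K4me3. These regions held between 90.9% and 99.3% of the H3K4me3 of their window in knockdown libraries and between 90.1% and 99.3% in control libraries. Their mean H3K4me3 lay between 128 and 198 CPM in knockdown cells and between 93.5 and 172 CPM in control cells. The leading regions lay between the 93.6th and 98.9th percentile of all regions per kb in knockdown cells and between the 92.4th and 97.0th in control cells. Of the other 54 regions, 50 stayed under 2 CPM in both groups, and the highest was BMP4 region 3 with 13.4 CPM in knockdown cells and 12.8 CPM in control cells. 12 regions had enough H3K4me3 to be tested, the 5 leading ones and 7 others.

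H3K4me3 rose at the leading regions of BMP7 and TGFB2, and none of the 12 tested regions was called lower. These were 2 of 12 tested regions called higher and 0 called lower, where 0.374% and 0.187% of all 26773 tested regions were called. At an unadjusted p under 0.05, edgeR had 3 of the 12 higher (5.26% of all) and 0 lower (4.93% of all). Groups did not overlap for 3 regions with knockdown higher (8.49% of all) and for 0 with knockdown lower (7.74% of all). The median log2 fold change was 0.36 over the 12 regions and -0.01 over all tested regions. In these bulk libraries a larger share of cells with a mark and more of the mark per cell cannot be told apart.

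The TGFB2 leading region (region 2, chr1:218517419-218525658) had 175, 171 and 194 CPM of H3K4me3 in knockdown libraries, against 122, 126 and 154 CPM in control libraries. The groups did not overlap, and the highest control library was replicate 3. The log2 fold change was 0.43 (SE 0.08, edgeR adjusted p = 0.0337). The call was lost without control replicate 1 (adjusted p = 0.168) and without knockdown replicate 1, 2 or 3 (0.141, 0.0696 and 0.272 in edgeR), while the log2 fold change stayed between 0.37 and 0.54. Without control replicate 3 the edgeR adjusted p was 0.00024.

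The BMP7 leading region (region 19, chr20:55834938-55842637) had 157, 137 and 159 CPM of H3K4me3 in knockdown libraries, against 116, 103 and 119 CPM in control libraries. Here too every knockdown library lay above every control library. The log2 fold change was 0.42 (SE 0.08, edgeR adjusted p = 0.013). The call was lost without knockdown replicate 1 (adjusted p = 0.105) and without knockdown replicate 3 (adjusted p = 0.17), and was kept in the other 4 of 6 such edgeR fits.

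BMP2 and BMP5 had fold changes of the same size that did not pass. The BMP2 leading region (region 1, chr20:6747102-6752493) had 191, 189 and 214 CPM of H3K4me3 in knockdown libraries, against 160, 124 and 167 CPM in control libraries. The groups did not overlap, and the log2 fold change was 0.40 (SE 0.10, edgeR adjusted p = 0.153, or 0.0175 without control replicate 3). The same region was called by DESeq2 (adjusted p = 0.00514) and not by limma-voom (adjusted p = 0.184). Without control replicate 2 its log2 fold change was 0.28 (edgeR adjusted p = 0.0725). Of the 6 edgeR fits that each left out 1 library, 1 called it, and the adjusted p reached 0.514. The BMP5 leading region (region 11, chr6:55733265-55741331) had 149, 116 and 119 CPM of H3K4me3 in knockdown libraries, against 80.1, 64.4 and 136 CPM in control libraries. Control replicate 3 lay within the knockdown range, and the other control libraries lay below it. With all libraries the log2 fold change was 0.45 (SE 0.33, edgeR adjusted p = 0.748), and without control replicate 3 it was 0.82 (adjusted p = 0.00305). Leaving out control replicate 2 moved it the other way, to 0.24 (edgeR adjusted p = 0.921).

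BMP4 did not share the positive sign, and no difference between leading regions was tested. Its leading region (region 5, chr14:54417549-54425029) had 153, 168 and 156 CPM of H3K4me3 in knockdown libraries, against 169, 200 and 146 CPM in control libraries. The groups overlapped, and the log2 fold change was -0.11 (SE 0.10, edgeR adjusted p = 0.773). It was the only one of the 5 leading regions with a negative value, and the sign turned (0.01) without control replicate 2. Without control replicate 3, the leading regions of BMP2, BMP5, BMP7 and TGFB2 were called higher, 4 of 13 tested regions (1.71% of all), and 0 were called lower (0.964% of all). Without control replicate 2, 2 of 12 tested regions were called higher and 0 lower, where 137 and 103 of all 29677 were called.

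**Figure D1:**
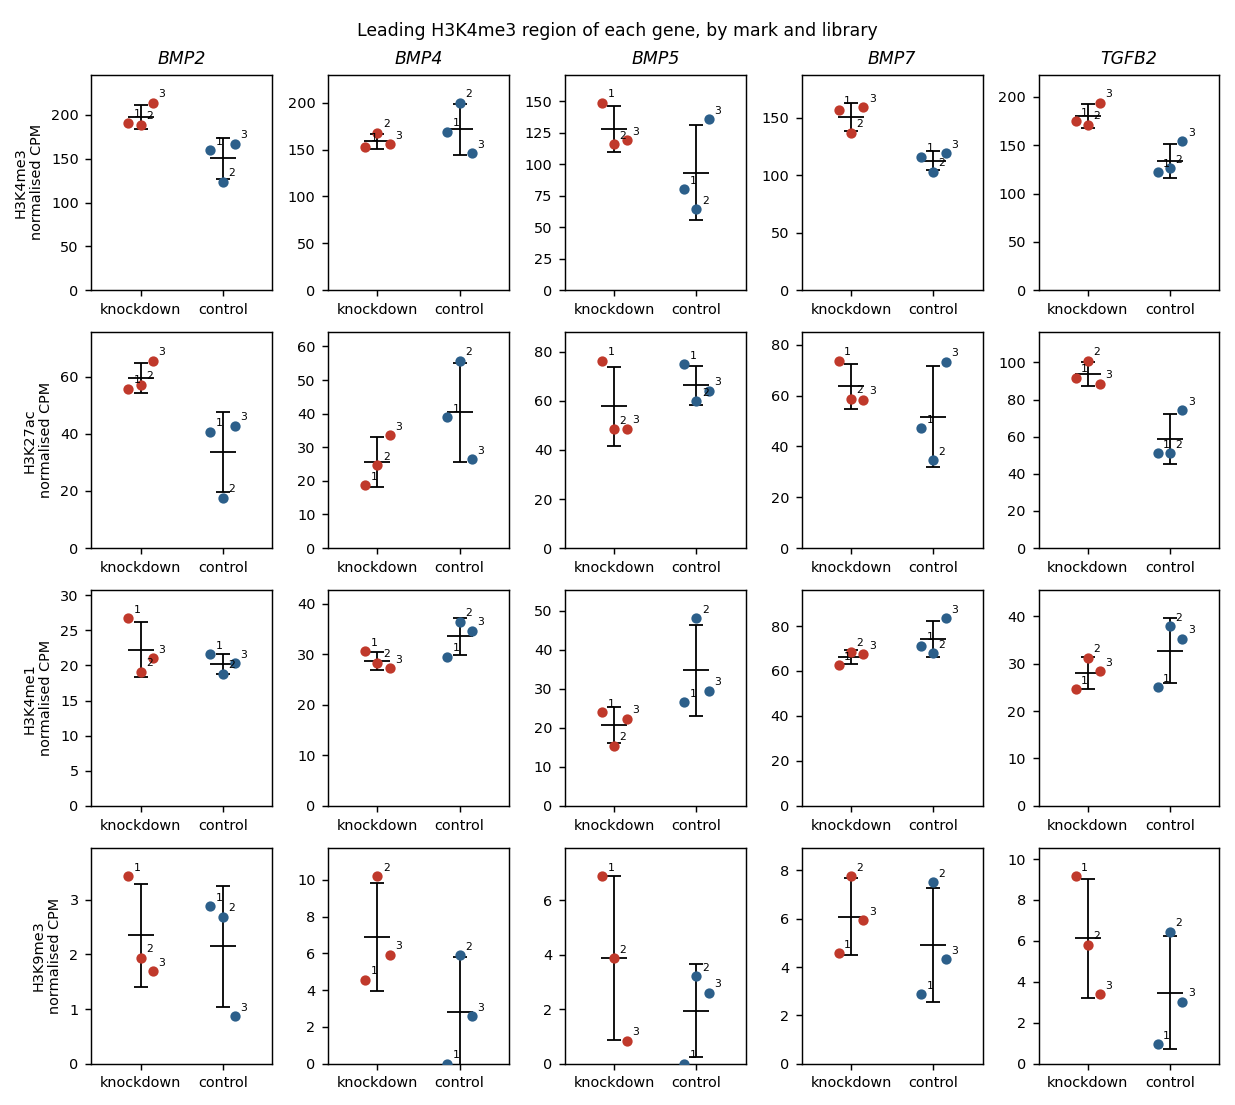
Normalised CPM (y axis, linear, from 0) of the 4 marks in the leading H3K4me3 region of each ligand gene, with knockdown libraries (red) left of control libraries (blue). Points are libraries with their replicate number, bars are the mean and SD of 3 libraries, and in H3K4me3 the groups do not overlap for BMP2, BMP7 and TGFB2.

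H3K27ac at the leading regions followed the genes less evenly. TGFB2 had 91.8, 101 and 88.5 CPM of H3K27ac in knockdown libraries, against 51.0, 51.0 and 74.1 CPM in control libraries, with a log2 fold change of 0.68 (SE 0.24, edgeR adjusted p = 0.269). BMP2 had 55.8, 57.2 and 65.7 CPM in knockdown libraries, against 40.7, 17.6 and 42.9 CPM in control libraries, with a log2 fold change of 0.82 (SE 0.31, edgeR adjusted p = 0.306), or 0.51 without control replicate 2. In both genes the knockdown libraries lay above all control libraries, and neither passed the adjusted threshold. BMP7 averaged 63.6 ± 8.84 CPM in knockdown libraries and 51.7 ± 19.8 CPM in control libraries (SD, n = 3 each), and BMP5 averaged 57.9 ± 16.1 CPM in knockdown libraries and 66.4 ± 7.88 CPM in control libraries. BMP4 averaged 25.6 ± 7.5 CPM in knockdown libraries and 40.4 ± 14.7 CPM in control libraries, a log2 fold change of -0.65 (SE 0.34, edgeR adjusted p = 0.491). For BMP7, BMP5 and BMP4 the groups overlapped.

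By H3K4me1 per kb, the leading regions of BMP2, BMP4, BMP5 and TGFB2 lay between the 40.0th and 48.3rd percentile of all regions in knockdown cells and between the 46.7th and 49.8th in control cells. The BMP7 leading region lay higher, at the 72.7th percentile in knockdown cells and the 78.1st in control cells. The BMP5 leading region had 24.1, 15.4 and 22.4 CPM of H3K4me1 in knockdown libraries, against 26.6, 48.1 and 29.6 CPM in control libraries. The knockdown libraries all lay below the control libraries, and the log2 fold change was -0.75 (SE 0.26, edgeR adjusted p = 0.31, or 0.0558 without control replicate 3), or -0.45 without control replicate 2.

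More ligand regions ranked high in H3K27ac in knockdown cells than in control cells, with smaller differences in H3K4me1 and H3K4me3. A mark counted as present if the region was in the top 20% of all regions by mean CPM per kb within its group, so that 20% of all regions have it in either group by construction. H3K27ac was present at 32 of the 59 regions (54.2%) in knockdown cells and at 16 (27.1%) in control cells. Taken library by library, it was present at 28, 25 and 29 regions in knockdown libraries and at 17, 19 and 18 in control libraries, and the groups did not overlap. Without control replicate 3 the control count was 14. Outside the leading regions, H3K27ac was present at 30 of 54 regions in knockdown cells and at 16 in control cells. H3K4me1 was present at 25 regions in knockdown cells and 17 in control cells, and library by library at 24, 19 and 21 in knockdown libraries, against 12, 14 and 21 in control libraries, which overlapped. H3K4me3 was present at 17 regions in knockdown cells and 16 in control cells, and library by library at 18, 17 and 18 in knockdown libraries, against 15, 12 and 15 in control libraries, which did not overlap. The H3K27ac limit lay lower in knockdown cells (8.59 CPM per kb) than in control cells (9.34 CPM per kb). TGFB2 region 9 thus passed in knockdown cells at 9.13 CPM per kb, while TGFB2 region 6 failed in control cells at 9.29. The counts also depend on the cut. A top 10% cut was counted in control cells alone (7 regions with H3K27ac), so the difference at that cut is not given. By H3K27ac, the median of the 59 regions lay at the 81.4th percentile in knockdown cells and at the 68.9th in control cells. The knockdown median thus lay close to the limit, and the gap between 32 and 16 may not hold at a stricter cut. The H3K4me3 limit lay at only 0.632 CPM per kb in knockdown cells and 0.614 CPM per kb in control cells. Many of these regions are short and hold few counts, so that a rank can rest on a handful of reads.

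Regions without H3K4me3 that had both H3K4me1 and H3K27ac were called enhancer-like. There were 16 of these among the 59 (27.1%) in knockdown cells and 4 (6.78%) in control cells, where all 153244 regions gave 5.25% and 4.55%. Leaving out 1 library at a time gave 11 to 13 in knockdown cells and 3 to 8 in control cells. BMP7 had 8 in knockdown cells and 1 in control cells. TGFB2 had 5 in knockdown cells and 2 in control cells, BMP5 had 2 in knockdown cells and 1 in control cells, and BMP2 had 1 in knockdown cells and 0 in control cells. BMP4 had 0 in both. Of the 16, 4 were enhancer-like in control cells too, and 1, BMP5 region 4, had both marks in both groups. It entered only because its H3K4me3 was 1 count in knockdown libraries against 21 in control libraries. BMP7 region 13 entered with less H3K27ac in knockdown cells (9.57 against 10.4 CPM per kb). BMP5 region 3 was left out because its H3K4me3, 0.752 CPM per kb in knockdown cells, passed the low limit. These counts are a description of ranks and no test was made on them.

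**Figure D2:**
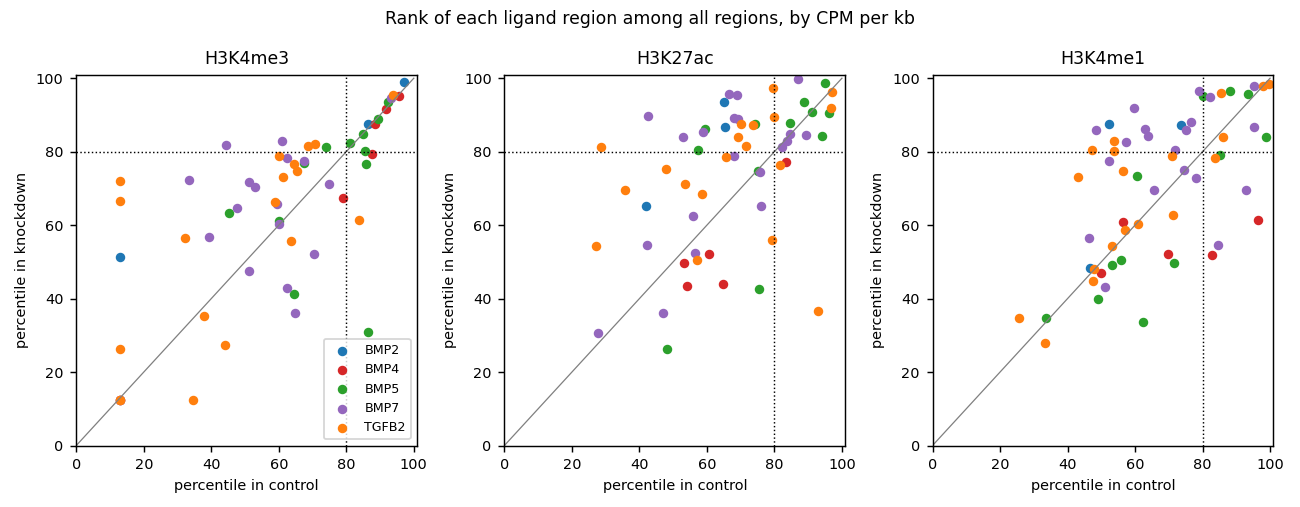
Percentile of each of the 59 ligand regions among all regions by CPM per kb, in knockdown (y axis) against control (x axis), for H3K4me3, H3K27ac and H3K4me1, with points coloured by gene and dotted lines at the 80th percentile. In H3K27ac, 32 points lie above the horizontal line and 16 lie right of the vertical line.

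Tested region by region, no ligand region passed in H3K27ac. edgeR called 0 of 44 tested regions higher and 0 lower, where 0.00813% and 0.00325% of all 61484 tested regions were called. At an unadjusted p under 0.05, 7 of the 44 were higher (5.91% of all) and 0 were lower (5.35% of all), and DESeq2 and limma-voom each called 1 ligand region, where they called 481 and 266 of all regions against 7 with edgeR. Groups did not overlap for 6 regions with knockdown higher (9.14% of all) and for 1 with knockdown lower (8.37% of all). The median log2 fold change was 0.30 over the 44 regions and -0.05 over all tested regions. Without control replicate 3, 2 of 47 regions were called higher (1.54% of all) and 0 lower (0.422% of all).

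The smallest p values in H3K27ac belonged to BMP7, which encodes a ligand of the BMP5 branch. Region 1 (chr20:55732039-55733178), centred 106.2 kb below the leading region, had 40.1, 45.5 and 34.2 CPM in knockdown libraries, against 9.99, 5.14 and 23.9 CPM in control libraries. Its groups did not overlap, and it ranked at the 99.8th percentile of all regions per kb in knockdown cells and at the 86.9th in control cells. The log2 fold change was 1.62 (SE 0.43, edgeR adjusted p = 0.143), and without control replicate 3 it was 2.42 (adjusted p = 0.0032). Over the 6 edgeR fits that each left out 1 library it ranged from 1.25 to 2.42. The adjusted p rose to as much as 0.522, and the region was called in 1 of these 6. Region 1 was the 1 region called by DESeq2 (adjusted p = 0.0462) and limma-voom (adjusted p = 0.0338). H3K4me1 at the same region averaged 11.3 ± 3.3 CPM in knockdown libraries and 9.8 ± 2.48 CPM in control libraries (SD, n = 3 each), which overlapped.

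Region 6 of BMP7 (chr20:55775477-55776935), 62.6 kb below the leading region, had 24.8, 27.7 and 23.1 CPM of H3K27ac in knockdown libraries, against 10.7, 8.81 and 8.81 CPM in control libraries. The control libraries were close together, replicate 3 included, and the log2 fold change was 1.41 (SE 0.40, edgeR adjusted p = 0.169). Region 11 (chr20:55799378-55800331), 38.9 kb below it, had 14.3, 6.44 and 15.1 CPM in knockdown libraries, against 3.45, 2.94 and 1.84 CPM in control libraries. That rests on 108 counts in knockdown libraries and 23 in control libraries, with a log2 fold change of 2.11 (SE 0.64, edgeR adjusted p = 0.203). The same region had the smallest H3K4me1 p of all ligand regions, with 12.4, 9.04 and 9.96 CPM of H3K4me1 in knockdown libraries, against 5.63, 2.93 and 3.38 CPM in control libraries (log2 fold change 1.38, SE 0.44, edgeR adjusted p = 0.269). In both marks every knockdown library at region 11 lay above every control library.

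BMP5 had the strongest distal region by H3K27ac per kb in the 5 windows after BMP7 region 1, averaged over both groups. Region 3 (chr6:55688821-55693659), 46.1 kb below the leading region, had 144, 88.6 and 114 CPM of H3K27ac in knockdown libraries, against 63.8, 48.1 and 113 CPM in control libraries. Control replicate 3 lay within the knockdown range. The log2 fold change was 0.62 (SE 0.28, edgeR adjusted p = 0.406), and without control replicate 3 it was 1.08 (adjusted p = 0.0332). Without control replicate 2 it was 0.39 (edgeR adjusted p = 0.678). H3K4me1 there averaged 67.9 ± 5.13 CPM in knockdown libraries and 64.8 ± 13.8 CPM in control libraries (SD, n = 3 each), and the region ranked at the 95.6th percentile per kb in knockdown cells and at the 93.6th in control cells.

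In TGFB2, the distal region with the most H3K27ac per kb was region 8 (chr1:218547371-218548813), 26.6 kb above the leading region. It had 30.9, 20.8 and 27.1 CPM of H3K27ac in knockdown libraries, against 25.5, 24.2 and 27.5 CPM in control libraries. The groups overlapped, with a log2 fold change of 0.03 (SE 0.33, edgeR adjusted p = 0.985), whose sign changed with the processing. The BMP2 region with the most distal H3K27ac per kb was region 3 (chr20:6764381-6764734), 14.8 kb above the leading region. It had 4.76, 7.96 and 3.39 CPM in knockdown libraries, against 0.689, 0.734 and 5.14 CPM in control libraries, where replicate 3 again lay within the knockdown range (log2 fold change 1.28, SE 0.95, edgeR adjusted p = 0.67). Without control replicate 3 the log2 fold change was 2.87 (edgeR adjusted p = 0.233), and without control replicate 1 it was 0.87 (edgeR adjusted p = 0.897).

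All 5 regions of BMP4 had negative log2 fold changes in H3K27ac, between -1.27 and -0.41, and none passed. In the distal region with the most H3K27ac per kb, region 1 (chr14:54409497-54409990), H3K27ac was at 0, 5.3 and 6.16 CPM in knockdown libraries, against 7.93, 2.94 and 4.4 CPM in control libraries, and the sign turned when control replicate 1 (0.08) or knockdown replicate 1 (0.19) was left out. Region 4 (chr14:54414245-54415347), 6.5 kb below the leading region, had the smallest H3K4me1 p of the gene. It had 5.19, 3.91 and 6.85 CPM of H3K4me1 in knockdown libraries, against 12.8, 15.9 and 5.98 CPM in control libraries. Control replicate 3 lay within the knockdown range, and the log2 fold change was -1.11 (SE 0.42, edgeR adjusted p = 0.347), or -1.42 without that library (adjusted p = 0.0443). Without control replicate 2 it was -0.82 (edgeR adjusted p = 0.496).

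**Figure D3:**
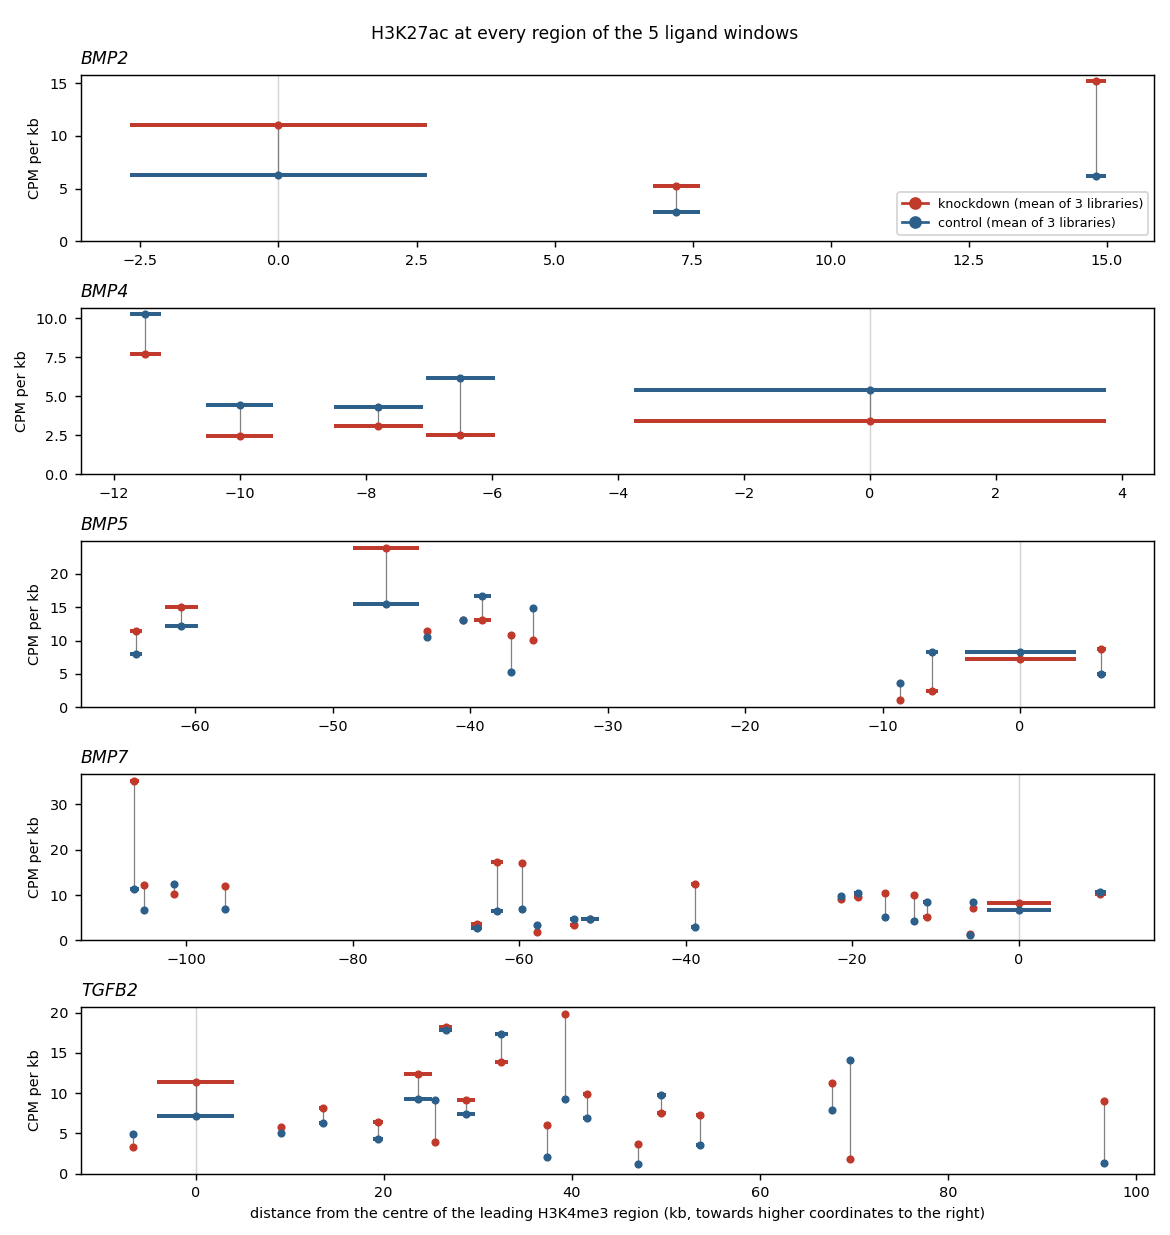
Mean H3K27ac per kb (CPM per kb, y axis) of every region in the 5 windows, drawn to scale by its distance in kb from the centre of the leading H3K4me3 region (x axis), for knockdown (red) and control (blue). The red bar of BMP7 region 1 stands highest, and in BMP4 the blue bar lies above the red one at all 5 regions.

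In H3K4me1, edgeR called 0 of 49 tested regions in either direction, where 0% of all 85815 were called higher and 0% lower. At an unadjusted p under 0.05, 4 were higher (4.91% of all) and 3 lower (5.58% of all), and DESeq2 and limma-voom called 0 of the ligand regions. Groups did not overlap for 8 regions with knockdown higher (7.9% of all) and for 4 with knockdown lower (7.68% of all). Without control replicate 3, BMP4 region 4 was called lower, 1 of 51 (1.1% of all), and 0 were called higher (1.61% of all). Apart from those described, the smallest p in a gene belonged to BMP2 region 2 and TGFB2 region 11. BMP2 region 2 (chr20:6756609-6757463) had 10.1, 12.0 and 7.05 CPM of H3K4me1 in knockdown libraries, against 4.28, 2.69 and 5.98 CPM in control libraries (log2 fold change 1.16, SE 0.45, edgeR adjusted p = 0.355). TGFB2 region 11 (chr1:218558619-218559309) had 4.15, 7.33 and 6.43 CPM in knockdown libraries, against 1.13, 2.44 and 2.6 CPM in control libraries (log2 fold change 1.54, SE 0.61, edgeR adjusted p = 0.374). In both regions the knockdown libraries lay above all control libraries.

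Fold changes of H3K27ac and H3K4me1 had the same sign in 26 of the 40 ligand regions tested in both marks (65%), with Spearman's rho of 0.41 across regions. Over all 56778 regions tested in both, 63.4% had the same sign and rho was 0.39. Of the ligand regions with 1 sign, 17 were higher and 9 lower in both marks, where 16587 of all regions were higher and 19426 lower in both. Regions are not independent replicates, and no test was made on these counts.

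**Figure D4:**
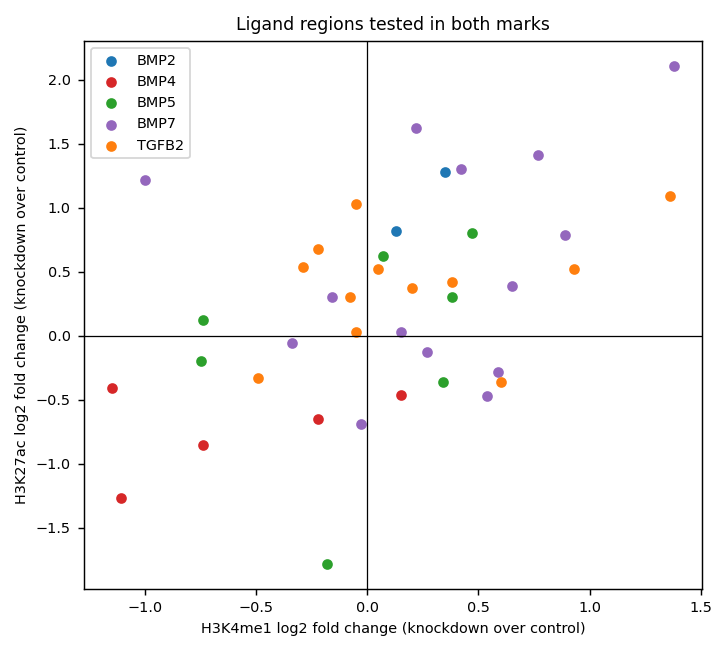
Log2 fold change (knockdown over control) of H3K27ac (y axis) against H3K4me1 (x axis) for the 40 ligand regions tested in both marks, coloured by gene. The BMP7 point at the top right is region 11, and 4 of the 5 BMP4 points lie at the lower left.

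Summed over all regions of a window, the 5 genes parted by mark. The BMP7 window had 237, 235 and 226 CPM of H3K27ac in knockdown libraries, against 142, 142 and 190 CPM in control libraries. The BMP2 window had 61.9, 73.9 and 72.4 CPM in knockdown libraries, against 43.4, 19.1 and 52.5 CPM in control libraries, and the TGFB2 window had 255, 236 and 282 CPM in knockdown libraries, against 184, 223 and 193 CPM in control libraries. In these 3 genes the groups did not overlap, with log2 differences of 0.57, 0.98 and 0.37. When 1 library was left out these ranged from 0.50 to 0.71 for BMP7, from 0.54 (without control replicate 2) to 1.26 for BMP2 and from 0.30 to 0.45 for TGFB2. For BMP7 the difference was 0.41 over the regions wholly inside the window, so region 1 supplied part of it. The BMP5 window averaged 262 ± 50.1 CPM in knockdown libraries and 226 ± 61.8 CPM in control libraries (SD, n = 3 each), and the groups overlapped.

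The BMP4 window had 24.5, 44.7 and 48.7 CPM of H3K27ac in knockdown libraries, against 72.7, 75.3 and 41.1 CPM in control libraries. Control replicate 3 lay among the knockdown libraries, and the log2 difference was -0.69, or -0.97 without it and -0.38 without knockdown replicate 1. For H3K4me1 the BMP4 window had 47.2, 54.5 and 53.7 CPM in knockdown libraries, against 70.3, 72.3 and 66.3 CPM in control libraries. Every knockdown library lay below every control library, and the log2 difference of -0.43 stayed between -0.47 and -0.36 when a library was left out. BMP4 was not alone in this, since the H3K4me1 sums of BMP2 and BMP7 also parted, with knockdown higher. Their log2 differences were 0.37 and 0.14, at the same exact permutation p = 0.1, while the groups overlapped for BMP5 and TGFB2. Among the 20 window sums the exact two-sided permutation test gave p = 0.1 at the least, the smallest that 3 against 3 allows, and Benjamini-Hochberg adjustment over the 20 gave 0.2 at the least, so none could pass 0.05.

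Within a library, the BMP4 window can be set against the summed windows of the other 4 genes, a comparison chosen after the values were seen. BMP4 was picked for its low values, so the p-values here, adjusted over marks and not over genes, are no support. The log2 ratio for H3K4me1 was -3.76, -3.50 and -3.59 in knockdown libraries and -2.97, -3.10 and -3.30 in control libraries, and the groups did not overlap (difference -0.50, exact permutation p = 0.1, 0.267 adjusted over the 4 marks). For H3K27ac it was -5.15, -4.09 and -4.09 in knockdown libraries and -3.09, -2.84 and -4.11 in control libraries, where replicate 3 lay within the knockdown range (difference -1.10, exact permutation p = 0.3). For H3K4me3 the difference was -0.52 (exact permutation p = 0.2) and the groups overlapped. In H3K9me3 the difference had the opposite sign (0.58, exact permutation p = 0.2), and the groups overlapped. These ratios also move with the other 4 windows. The BMP4 window alone differed by -0.10 in H3K4me3, -0.69 in H3K27ac, -0.43 in H3K4me1 and 1.01 in H3K9me3.

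**Figure D5:**
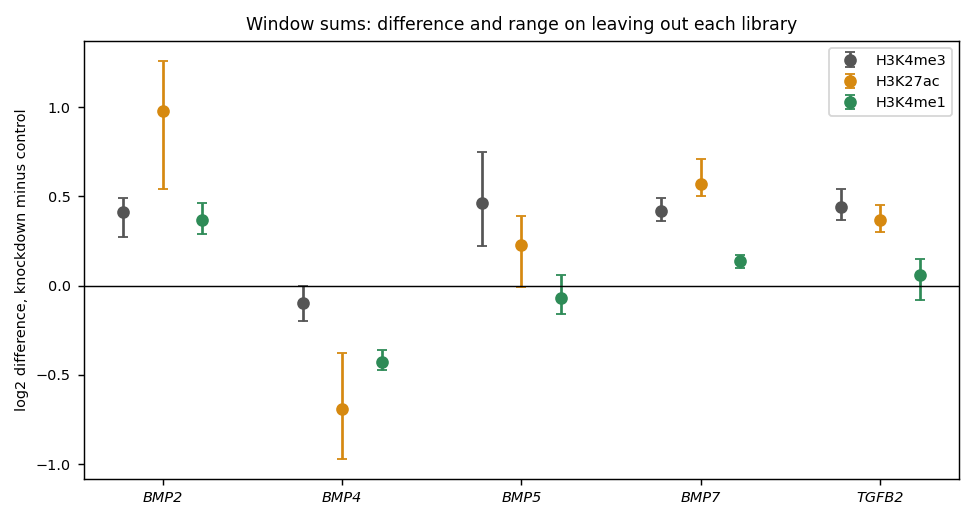
Difference in mean log2 CPM of the window sums, knockdown minus control (y axis), for H3K4me3, H3K27ac and H3K4me1 in each gene (x axis), with whiskers from the lowest to the highest value when 1 of the 6 libraries was left out. BMP4 is the gene whose points lie below 0 in all 3 marks, and BMP2 has the highest H3K27ac point at 0.98.

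H3K9me3 was scarce at the ligand genes. Of the 354 counts over 59 regions and 6 libraries, 52.3% were 0 and the highest was 21. By group mean, 0 of the 59 regions were in the top 20% in either group. 3 regions were tested, the leading regions of BMP4, BMP7 and TGFB2, with log2 fold changes of 1.29, 0.32 and 0.81. edgeR called 0 of these 3 in either direction, where 0.00654% of all 30565 were called higher and 0.00327% lower, and at an unadjusted p under 0.05 there were 0 higher (3.99% of all) and 0 lower (4.32% of all). DESeq2 and limma-voom called 0 as well. Groups did not overlap for 0 of the 3 with knockdown higher (7.17% of all) and 0 with knockdown lower (7.19% of all), and without control replicate 3 edgeR called 0 higher (0.0216% of all) and 0 lower (0.0189% of all). The BMP4 leading region rested on 8, 21 and 14 counts in knockdown libraries and 0, 11 and 6 in control libraries. Summed over a window, H3K9me3 was higher in knockdown libraries for BMP5, with 28.6, 16.0 and 13.6 CPM in knockdown libraries, against 7.19, 11.3 and 9.09 CPM in control libraries. These groups did not overlap, and the log2 difference of 1.02 (0.70 to 1.24 when 1 library was left out) rests on 115 counts in knockdown libraries and 57 in control libraries (exact permutation p = 0.1, adjusted 0.2). The BMP4 window had a log2 difference of 1.01 (0.67 to 1.32), from 71 counts in knockdown libraries and 36 in control libraries, and its groups overlapped.

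Across the 24 libraries, with each mark centred on its own mean, the leading regions of BMP5 and TGFB2 were the most alike of the 10 pairs (Pearson's r = 0.72 on log2 CPM), followed by BMP7 and TGFB2 (r = 0.69). BMP2 and BMP4 were the least alike (r = -0.33). Among 23040 regions outside the windows that were tested in both H3K4me3 and H3K27ac, the most alike to BMP4 was chr9:33157468-33168419 (r = 0.95) and the most alike to BMP7 was chr17:37830582-37835144 (r = 0.91). For BMP2 it was chr3:169529342-169531064 (r = 0.89), for TGFB2 chr5:141701783-141706510 (r = 0.89) and for BMP5 chr12:124455698-124459956 (r = 0.85). These are descriptions over libraries that share their cells and depth, taken as the maximum of many candidates. The marks were centred but not scaled, so a mark with few counts can weigh heavily. In H3K9me3 the BMP5 leading region had 12, 8 and 2 counts in knockdown libraries and 0, 6 and 6 in control libraries. How much each mark gave to r was not tested.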

How the data were processed

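The authors deposited raw read counts per region for 24 libraries over an identical list of 153244 regions. Per the submitters' processing notes, Bowtie2 2.4.5, bedtools 2.30.0, deepTools 3.5.4 and hg19 were used; the sources used here do not state the role of each tool, the origin of the regions or any read filter. Even values made up 51.9% to 65.9% of the counts above 0 in each library, so both mates of a pair may have been counted.

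Each mark's 6 libraries were tested on the deposited counts with edgeR 4.0.16 in R 4.3.3 (filterByExpr, TMM, robust quasi-likelihood test, group as the only term, Benjamini-Hochberg over all tested regions) and called at an adjusted p under 0.05. The filter left 12, 44, 49 and 3 ligand regions in H3K4me3, H3K27ac, H3K4me1 and H3K9me3. SE is the log2 fold change over the square root of F. Window sums used an exact two-sided permutation test. Log2 CPM for likeness used a prior count of 2. The script was tested on simulated counts.

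Named regions were, per gene, the region with the most H3K4me3 per kb, the other region with the most H3K27ac per kb, every called region and the smallest p per mark. BMP7 regions 6 and 11 in H3K27ac and counts per library were chosen after their values were seen. The members, windows and lists were chosen with earlier results of these data known. Alternatives were leaving out each library, a replicate block, no filter, a strict filter (30 reads, 3 libraries), RLE factors, library totals, limma-voom (limma 3.58.1), DESeq2 1.42.0 and a top 10% cut for presence. The pathway list, cell type markers and ZNF436 need an hg19 annotation and were not analysed here. Promoter sequences are from RefSeq, GRCh38.p14.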

Additional observations from a re-analysis of the deposited data

How the results depend on the processing

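Libraries and tools decided most calls. In H3K4me3, 150 of all regions were called, and this became 397 with DESeq2, 666 without a filter and 27 to 805 when 1 library was left out; the ligand regions called were 2, and 0 to 4 when 1 library was left out. In H3K27ac, 7 of all regions were called, against 4 with library totals, 481 with DESeq2, 266 with limma-voom, 599 without a filter, 43 with the strict filter and 0 to 1412 when 1 library was left out; 0 ligand regions were called, against 1 with each of DESeq2, limma-voom and no filter and 0 to 2 when 1 library was left out. In H3K4me1, 0 of all regions were called, against 10 with library totals, 80 with DESeq2, 6 with limma-voom, 208 without a filter and 0 to 2443 when 1 library was left out, and 0 to 1 ligand regions. In H3K9me3, 3 of all regions were called, against 208 with DESeq2, 10 with limma-voom and 4 to 20 when 1 library was left out; the strict filter left no ligand region to test, and the median log2 fold change of all regions moved from 0.01 to 0.29 with DESeq2 and 0.20 without a filter. The highest counts in H3K4me3, H3K27ac and H3K4me1 came without control replicate 3. At a top 10% cut, H3K4me3 was present in control cells at 10.2% of the ligand regions, H3K27ac at 11.9% and H3K4me1 at 13.6%; without 1 control library at the top 20% cut, an alternative chosen after seeing the data, the shares were 20.3% to 28.8%, 23.7% to 28.8% and 23.7% to 32.2%.

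Same-numbered libraries showed little shared deviation over the regions with the highest mean (r from -0.14 to 0.14), so the numbers were not taken to pair libraries. On the first principal component, however, replicate 2 lay lowest within both groups in H3K4me3, H3K27ac and H3K4me1, so pairing is not settled. With the replicate block, 3 ligand regions were called in H3K4me3, BMP2 region 1 being added (edgeR adjusted p = 0.0243), and 0 in each of the other marks; of all regions, 177 were called in H3K4me3, 102 in H3K27ac, 94 in H3K4me1 and 6 in H3K9me3.

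Of the fold changes of single regions, 3 turned sign. BMP4 region 5 in H3K4me3 ranged from -0.22 to 0.01 and BMP4 region 1 in H3K27ac from -0.93 to 0.19 when 1 library was left out. TGFB2 region 8 in H3K27ac ranged from -0.07 to 0.20 so, and was -0.02 with library totals and -0.06 with the strict filter. The cause was not tested. Counts of a few reads in short regions limit H3K9me3 everywhere and H3K27ac and H3K4me1 in the distal regions.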
